A study of Mus musculus with 6 samples.

Results

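The genes described here encode splicing factors and spliceosome subunits, measured in MA-10, a line of mouse Leydig tumor cells, and in the STARKO1 line made from it. A gene was included when the table gave it as protein coding and its symbol belonged to 1 of the families Srsf, Tra2, Hnrnp, Ptbp, Sf3a, Sf3b, U2af, Snrp, Lsm, Prpf, Rbm, Celf, Mbnl, Rbfox, Nova or Esrp. Snrpn was left out. The snRNP group below holds only symbols that begin with Snrp, so snRNP protein genes with Snrnp symbols are not in it. The choice by family name gave 125 genes of 14774 in the table, and 122 of them passed the filter on low counts that left 11939 genes for testing. MA-10 is an immortalised line that makes progesterone and expresses Star, which encodes the protein that moves cholesterol into mitochondria for steroid synthesis. STARKO1 is a single-cell clone isolated after CRISPR/Cas9 was directed at exon 2 of Star, so an effect of losing Star and a peculiarity of this 1 clone cannot be told apart. Total RNA was sequenced in 3 MA-10 libraries and 3 STARKO1 libraries, and the labels name no treatment for either group.

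Splicing removes introns from pre-mRNA. Small nuclear ribonucleoproteins, or snRNPs, are built from an snRNA and proteins such as the Sm ring, and they recognise the splice sites and the branch point before helicases and the PRPF proteins remodel them into the active spliceosome. SR proteins usually favour the inclusion of exons to which they bind, hnRNP proteins often oppose them, and CELF, MBNL, RBFOX and ESRP proteins adjust exon choice by tissue. Many SR protein genes limit their own mRNA through transcripts with early stop codons that nonsense-mediated decay removes.

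Depth ran from 14114351 to 19530062 estimated counts per library. The targeted gene matched the labels, with Star at 1064, 1261 and 697 counts in MA-10 and at 48, 46 and 36 counts in STARKO1. All 10 Leydig cell markers listed were tested, of which Hsd3b1 fell (adjusted p = 0.00268 by edgeR), and 11 of 18 markers of other testis cells were not in the table. The sum of the Leydig markers was 2094 to 2749 CPM (counts scaled to library size, here with the TMM method) in MA-10 and 1738 to 1818 in STARKO1. The markers did not all go 1 way. Cyp11a1 and Hsd3b6 had means of 835 and 573 CPM in MA-10 and 439 and 302 CPM in STARKO1, without a call. Of the 10 markers, 6 had a negative log2 fold change and 4 a positive one, namely Cyp17a1 (1.27), Nr5a1 (0.42), Insl3 (0.28) and Tspo (0.0015), also without a call. The sum of the other markers was 52.8 to 69.0 CPM against 150 to 153 CPM. Among them the endothelial gene Cdh5 rose, from 34.0, 41.3 and 26.1 CPM to 117, 123 and 121 CPM (adjusted p = 0.00596 by edgeR). It was the only call among the 5 of these markers tested. The endothelial gene Pecam1 was at 0.744, 0.173 and 0.352 CPM against 0.860, 0.707 and 0.618 CPM, and Kdr was not in the table. Dhh, Ddx4 and Csf1r had log2 fold changes of 0.03, −0.32 and 0.16. Without MA-10 replicate 1, 3 of the 5 passed as higher (60%), against 34% of all genes. Whether other cells took part in any result below was not tested.

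MA-10 replicate 1 stood apart from the other MA-10 libraries. Over the splicing genes, log2 CPM correlated at 0.966 to 0.970 between MA-10 replicate 1 and the STARKO1 libraries, at 0.829 to 0.984 among the MA-10 libraries, and at 0.997 to 0.998 among the STARKO1 libraries. The correlations are descriptions over genes that share their libraries. RNA composition moved with it. The 7SL RNA genes Rn7s1 and Rn7s2 took 1.81% of counts in MA-10 replicate 1, 14.4% in replicate 2 and 6.63% in replicate 3, against 1.82 to 2.37% in STARKO1. The 87 ribosomal protein genes took 4.45%, 8.48% and 7.61% against 4.08 to 4.26%. The noncoding RNA gene Gm26917 took 8.71%, 0.571% and 1.63% against 4.97 to 6.03%, with MA-10 replicate 1 above every STARKO1 library. Results are given with all libraries, and counts of calls also without MA-10 replicate 1. The paper describes its data in general as coming from independent experiments. It does not say whether the sequenced replicates came from separate cultures, so p-values measure only the spread between these libraries.

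With all libraries, 11 of 122 splicing genes (9.02%) differed between STARKO1 and MA-10 at an adjusted p under 0.05, against 9.04% of all genes tested. Of these, 9 were higher in STARKO1 (4.3% of all genes were called higher) and 2 were lower (4.74% of all genes). The share of splicing genes called was thus close to that of all genes. By role, 5 calls were in the 12 SR protein genes tested, 4 in the 32 RBM genes, 1 each in the SF3 and U2AF group and the tissue-biased regulators, and none in the 11 snRNP, 13 LSm, 13 PRPF and 23 hnRNP and PTBP genes. At an unadjusted p under 0.05 there were 50 splicing genes, 21 higher and 29 lower, among them 6 snRNP, 7 LSm, 2 PRPF and 7 hnRNP or PTBP genes, against 37.6% of all genes tested (15% higher and 22.7% lower). DESeq2 called 38 splicing genes, 21 higher and 17 lower, against 28.4% of all genes (11% higher and 17.4% lower), and edgeR with library size as the scale called 6, all higher and 5 of them among the 11, against 2.76% (1.76% and 1.01%). An offset for gene length, chosen after seeing the data, gave 11 calls, 9 higher and 2 lower, against 10.1% of all genes (5.02% and 5.13%). The median log2 fold change was −0.19 over the splicing genes and −0.05 over all genes tested, with 45 splicing genes above 0 and 77 below. All 11 calls held without MA-10 replicate 1, where 65.7% of all genes were called. Leaving out MA-10 replicate 2 kept 5 of them and MA-10 replicate 3 kept 2, with adjusted p-values up to 0.0823 and 0.145 by edgeR. In those fits 4.19% and 1.49% of all genes were called. Leaving out STARKO1 replicate 1, 2 or 3 kept 1 each time, with values up to 0.210, 0.188 and 0.207. There 0.73%, 1.11% and 0.76% of all genes were called. Fold changes here are STARKO1 over MA-10 from edgeR's quasi-likelihood test, and adjusted p-values are Benjamini-Hochberg values over all genes tested.

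**Figure D1:**
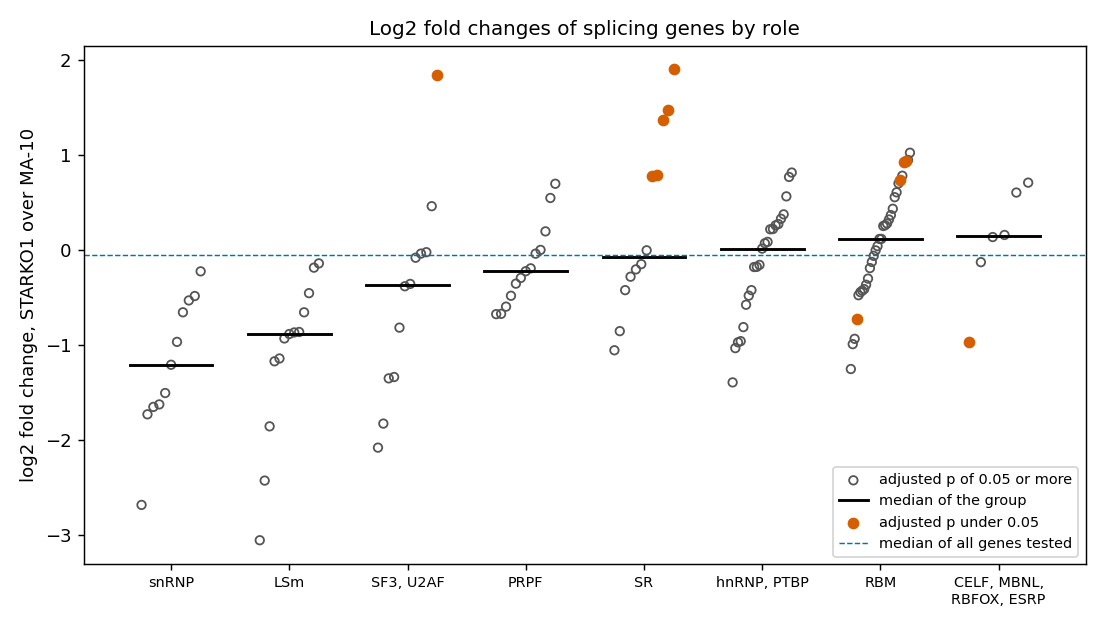
Each point is 1 gene, placed by its role on the x axis and by its log2 fold change of STARKO1 over MA-10 on the y axis. Filled points have an adjusted p under 0.05, black lines mark the median of each role, and the dashed line marks the median of all genes tested (−0.05). The 5 filled SR protein genes lie at or above 0.78, while every snRNP and LSm gene lies below 0 at this scaling (3 of each turn positive with library size as the scale) and none of those is filled.

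With all libraries, 5 of 12 SR protein genes (41.7%) rose in STARKO1 and none fell, against 4.3% and 4.74% of all genes. In the fit without MA-10 replicate 1, 9 passed, 5 higher (41.7%) and 4 lower (33.3%), against 34% and 31.7% of all genes, and the 4 lower genes were Srsf4, Srsf9, Srsf10 and Tra2b. The 5 genes that rose with all libraries were Srsf6, Srsf2, Srsf1, Srsf3 and Tra2a. They encode activators that bind exonic enhancer sequences through RNA recognition motifs and contact the spliceosome through arginine-serine domains. The median over the group was −0.07, since the other 7 genes had log2 fold changes from −1.06 to just under 0. In the genes that rose, the highest MA-10 library was 1.20 to 1.75 times the lowest, where the median of this ratio over the splicing genes was 1.95. The test favours genes with a small spread within a group, so this ratio is no separate result about them.

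The bases just before the RefSeq start of these 5 genes are shown. The genes were picked because each was called higher, so their shared direction is no sign of shared control. Each stretch is 120 bases of GRCm38.p6 on the strand of the gene, 5′ to 3′, ending at the base before the start, with CRE, CCAAT box and TATA box letters in capitals.

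Srsf6, chr2:162931388-162931507, plus strand: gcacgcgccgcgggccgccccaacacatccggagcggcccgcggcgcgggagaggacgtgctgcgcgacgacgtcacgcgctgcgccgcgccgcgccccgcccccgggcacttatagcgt

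Srsf1, chr11:88047253-88047372, plus strand: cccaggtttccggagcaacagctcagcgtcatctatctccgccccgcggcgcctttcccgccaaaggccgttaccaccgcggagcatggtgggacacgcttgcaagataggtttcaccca

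Srsf2, chr11:116853095-116853214, minus strand: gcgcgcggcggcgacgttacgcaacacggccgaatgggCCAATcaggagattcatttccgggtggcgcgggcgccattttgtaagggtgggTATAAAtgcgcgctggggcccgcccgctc

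Srsf3, chr17:29032540-29032659, plus strand: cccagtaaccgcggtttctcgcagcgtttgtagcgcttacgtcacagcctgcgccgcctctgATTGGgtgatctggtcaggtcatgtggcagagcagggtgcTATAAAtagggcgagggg

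Tra2a, chr6:49264053-49264172, minus strand: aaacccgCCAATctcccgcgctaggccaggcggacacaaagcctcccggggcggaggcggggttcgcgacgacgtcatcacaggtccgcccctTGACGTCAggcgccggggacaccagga

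In these stretches the CCAAT box (CCAAT or ATTGG) occurred in Srsf2, Srsf3 and Tra2a, the TATA box (TATAAA) in Srsf2 and Srsf3, and the CRE (TGACGTCA) in Tra2a. Both strands were searched over 250 upstream bases. The CCAAT box was in 47.5% of the 101 tested splicing genes with a promoter sequence and in 41.6% of 8518 tested protein-coding genes. For the TATA box the shares were 9.90% and 7.13%, and for the CRE 3.96% and 3.10%. The E-box (CACGTG) was in 11.9% and 10.3%, the ETS motif (CCGGAAG) in 23.8% and 17.4%, and the NRF1 motif in 0.990% and 2.15%, with none of these 3 in the 5 genes shown. The median GC content was 60.4% for the splicing genes and 60.2% for all. A match is a string of letters and no evidence of binding.

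Srsf6, on chromosome 2 from 162931528 to 162937122 (GRCm38), encodes an SR protein that selects alternative exons. It was at 20.04, 20.5 and 24.1 CPM in MA-10 and at 75.3, 79.4 and 87.4 CPM in STARKO1. Its log2 fold change was 1.91 (SE 0.161), adjusted p = 0.00241 by edgeR, and the groups were far apart. Srsf6 kept its call when any 1 library was left out.

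Srsf1, on chromosome 11 from 88047373 to 88053756, encodes a founding SR protein that promotes the use of proximal splice sites. Its levels were 111, 101 and 90.6 CPM in MA-10 and 260, 255 and 269 CPM in STARKO1, a log2 fold change of 1.37 (SE 0.166), adjusted p = 0.00749 by edgeR. Srsf1 lost its call without any 1 STARKO1 library (adjusted p = 0.0624, 0.0642 and 0.0714 by edgeR), with log2 fold changes of 1.46, 1.39 and 1.35.

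Srsf2, on chromosome 11 from 116849901 to 116853095, encodes a protein long used as a marker of nuclear speckles. It was at 71.4, 51.3 and 40.9 CPM in MA-10 and at 146, 149 and 162 CPM in STARKO1, a log2 fold change of 1.48 (SE 0.232), adjusted p = 0.0165 by edgeR. It missed the threshold with library size as the scale (log2 fold change 1.86, adjusted p = 0.0609 by edgeR). All MA-10 values lay under all STARKO1 values, with MA-10 replicate 1 the nearest. Srsf2 overlaps Mettl23 and Mfsd11 on the opposite strand, and the strand setting of the counting is not given in the sources used here.

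Srsf3, on chromosome 17 from 29032628 to 29043374, encodes a small SR protein that also aids mRNA export. It was at 108, 138 and 105 CPM in MA-10 and at 196, 208 and 201 CPM in STARKO1, a log2 fold change of 0.79 (SE 0.176), adjusted p = 0.0422 by edgeR. With an offset for gene length its log2 fold change was 0.71 and it missed the threshold (adjusted p = 0.0596 by edgeR).

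Tra2a, on chromosome 6 from 49243924 to 49264034, encodes a homologue of the fly Transformer-2 regulator. It was at 18.9, 23.2 and 22.7 CPM in MA-10 and at 35.5, 39.3 and 36.4 CPM in STARKO1, a log2 fold change of 0.78 (SE 0.156), adjusted p = 0.0328 by edgeR. Its paralogue Tra2b stood at 138, 470 and 341 CPM against 164, 183 and 178 CPM, and did not pass the test with all libraries (adjusted p = 0.176 by edgeR). MA-10 replicate 1 was below the STARKO1 libraries for Tra2b and the other MA-10 replicates were above them.

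Srsf9 had the highest mean level per kilobase of exon in the group, at 101 CPM per kilobase over all libraries. Its values were 151, 218 and 202 CPM in MA-10 and 139, 146 and 141 CPM in STARKO1, without a call (adjusted p = 0.153, and 0.0042 without MA-10 replicate 1, by edgeR). With library size as the scale its log2 fold change turned from −0.42 to 0.07. Srsf10, which encodes a splicing repressor activated by dephosphorylation, was at 101, 374 and 262 CPM in MA-10 and 116, 121 and 117 CPM in STARKO1 (adjusted p = 0.128, and 0.000117 without MA-10 replicate 1, by edgeR). Srsf11 had one of the smallest changes, with 93.1, 141 and 134 CPM against 119, 124 and 124 CPM. Srsf12 was not tested, with 6, 6 and 3 counts in MA-10 and 0 counts in every STARKO1 library, where 3 counts would be 0.129 to 0.177 CPM.

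**Figure D2:**
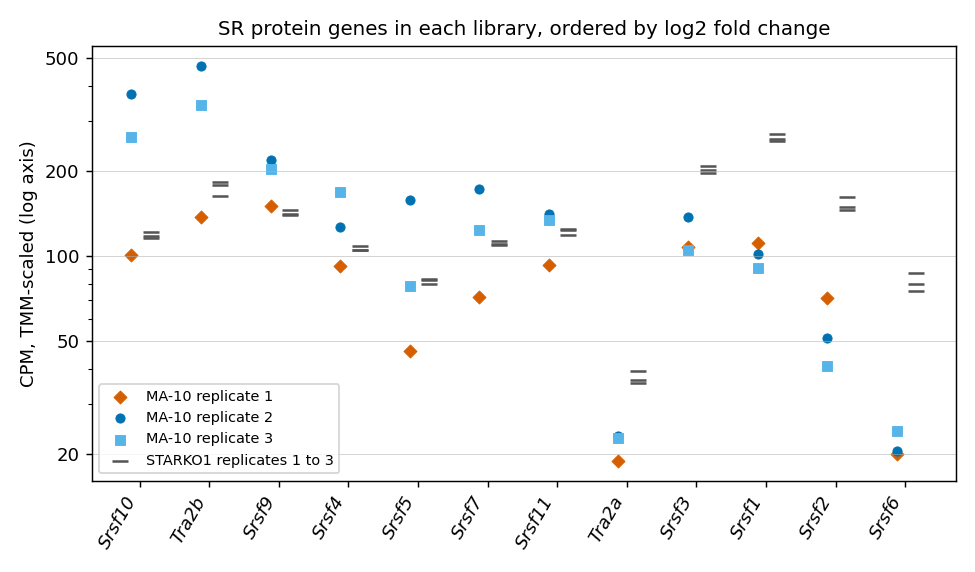
The 12 tested SR protein genes are ordered along the x axis by log2 fold change, with CPM in each library on a logarithmic y axis. Diamonds, circles and squares are MA-10 replicates 1, 2 and 3, and dashes are the 3 STARKO1 libraries. The 5 genes on the right have all MA-10 libraries under all STARKO1 libraries, and Srsf10 and Tra2b on the left have MA-10 replicate 1 below STARKO1 and the other MA-10 replicates above.

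In the annotation, GENCODE M21, 11 of the 12 tested SR protein genes (91.7%) had a transcript marked for nonsense-mediated decay, as had 44.3% of the tested splicing genes and 26.8% of all genes tested. The counts are per gene and do not separate such transcripts from those that encode the protein.

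Among the subunits that recognise the branch point and the 3′ splice site, Sf3b3 rose and the other 11 of 12 genes did not pass the test. SF3B3 is a scaffold of the SF3b complex of the U2 snRNP. Sf3b3 was at 96.0, 51.3 and 55.7 CPM in MA-10 and at 232, 235 and 263 CPM in STARKO1, a log2 fold change of 1.84 (SE 0.276), adjusted p = 0.0146 by edgeR. It missed the threshold with library size as the scale (log2 fold change 2.18, adjusted p = 0.0583 by edgeR). Every STARKO1 value was more than any MA-10 value, and the STARKO1 mean was 2.53 times MA-10 replicate 1, 4.74 times replicate 2 and 4.37 times replicate 3. The gene overlaps Cog4 on the opposite strand and the small nucleolar RNA gene Snord111 on the same strand.

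The partners of Sf3b3 in the same complex did not pass the test. Sf3b1, whose protein contacts the branch point, was at 327, 319 and 424 CPM in MA-10 and 356, 345 and 343 CPM in STARKO1. Sf3b2, with the highest level per kilobase in the group, was at 450, 491 and 577 CPM against 479, 516 and 500 CPM, and overlaps an annotated gene on the opposite strand. These levels overlapped between the groups.

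U2af1l4, a paralogue of the small U2AF subunit U2af1, was at 17.5, 98.4 and 66.4 CPM in MA-10 and at 13.6, 13.97 and 15.3 CPM in STARKO1. It missed the threshold (log2 fold change −2.08, SE 0.562, adjusted p = 0.0610 by edgeR), and it overlaps Gm49396 and Psenen. U2af2, the large subunit that binds the polypyrimidine tract, was at 115, 150 and 116 CPM against 173, 171 and 181 CPM (adjusted p = 0.108 by edgeR). Without MA-10 replicate 1, 9 of the 12 genes (75%) passed, 2 higher (Sf3b3 and U2af2) and 7 lower (U2af1l4 among them), where 65.7% of all genes did.

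In the RBM group, Rbm45, Rbm10 and Rbm19 rose and Rbm22 fell, 4 of 32 genes tested (12.5%, against 9.04% of all genes). When MA-10 replicate 1 was left out, 24 passed (75%), 15 higher and 9 lower, against 65.7% of all genes. RBM45 is an RNA-binding protein of the developing nervous system. Rbm45 was at 13.2, 16.1 and 16.9 CPM in MA-10 and at 28.7, 26.1 and 33.5 CPM in STARKO1, a log2 fold change of 0.94 (SE 0.180), adjusted p = 0.0296 by edgeR. Rbm10 encodes a regulator of exon skipping that lies on the X chromosome and overlaps Ndufb11. It was at 39.8, 26.5 and 26.8 CPM against 60.3, 58.8 and 58.8 CPM, a log2 fold change of 0.93 (SE 0.202), adjusted p = 0.0398 by edgeR. Rbm19, which is known for a role in ribosomal RNA processing, was at 35.4, 27.1 and 30.2 CPM against 48.1, 50.05 and 57.1 CPM, a log2 fold change of 0.74 (SE 0.169), adjusted p = 0.0438 by edgeR.

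Rbm22, whose protein binds snRNA at the catalytic centre of the spliceosome, was at 54.5, 67.3 and 58.5 CPM in MA-10 and at 34.9, 38.3 and 35.8 CPM in STARKO1. Its log2 fold change was −0.73 (SE 0.153), adjusted p = 0.0372 by edgeR, and the groups did not overlap. With library size as the scale its log2 fold change was −0.26 (adjusted p = 0.404 by edgeR), and Rbm10 and Rbm19 also missed the threshold (adjusted p = 0.105 and 0.103), with larger log2 fold changes of 1.31 and 1.14.

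Rbm15 and Rbm12 just missed the threshold. Rbm15, a part of the complex that methylates adenosine in mRNA, was at 71.5, 155 and 156 CPM in MA-10 and 53.2, 54.997 and 52.2 CPM in STARKO1 (adjusted p = 0.0517 by edgeR). Rbm12 was at 15.004, 10.1 and 10.9 CPM against 21.04, 21.2 and 20.1 CPM (adjusted p = 0.0526 by edgeR), and it overlaps Cpne1 and Gm28036 on its own strand. Rbm15, Rbm12 and Rbm17 passed without MA-10 replicate 1 (adjusted p = 2.1e-05, 0.000182 and 0.00218 by edgeR). Rbm17, with the highest level per kilobase of the group, was at 107, 237 and 185 CPM against 123, 130 and 128 CPM, and Rbm26 had one of the smallest changes, at 66.7, 52.4 and 73.9 CPM against 64.1, 59.8 and 68.8 CPM. Rbm8a2 was too low to be tested.

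Of the tissue-biased regulators, Mbnl2 fell and the other 5 tested genes did not pass. MBNL2 is a muscleblind protein that directs exon use in differentiated tissue. Mbnl2 was at 143, 231 and 200 CPM in MA-10 and at 99.8, 96.4 and 96.6 CPM in STARKO1, a log2 fold change of −0.97 (SE 0.212), adjusted p = 0.0401 by edgeR. With library size as the scale the log2 fold change was −0.47 and the gene missed the threshold (adjusted p = 0.136 by edgeR). Its paralogue Mbnl1 was at 166, 153 and 165 CPM against 154, 147 and 143 CPM. Celf1, which binds GU-rich elements and had the highest level per kilobase of the group, was at 120, 83.9 and 93.3 CPM against 149, 148 and 157 CPM without a call (adjusted p = 0.0741, and 0.000389 without MA-10 replicate 1, by edgeR). Without that library 5 of the 6 genes (83.3%) passed, 4 higher and 1 lower, against 65.7% of all genes. Nova2, a neuronal regulator, was too low to be tested.

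None of the 11 snRNP genes passed the test, although all 11 had a negative log2 fold change, with a median of −1.21. With library size as the scale, Snrpb, Snrpb2 and Snrpd2 turned positive and the median was −0.59, where that of all genes was 0.38, and with the gene length offset Snrpb turned positive. The group was split within MA-10. Snrpf, an Sm ring protein gene, had the highest level per kilobase of this group. It was at 148 CPM in MA-10 replicate 1, 1857 in replicate 2 and 1148 in replicate 3, and at 154, 170 and 165 CPM in STARKO1. Its log2 fold change was −2.69 (SE 0.795, adjusted p = 0.0699 by edgeR), and Ccdc38 overlaps it on the opposite strand. MA-10 replicate 1 thus lay just under the STARKO1 values, and the other MA-10 replicates several-fold over them.

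Snrpd1, another Sm ring gene, was split in the same way, at 78.2, 454 and 517 CPM in MA-10 and 103, 107 and 106 CPM in STARKO1. Snrpa, which encodes a protein of the U1 snRNP, was at 84.0, 487 and 267 CPM against 86.0, 90.1 and 90.1 CPM. At the other end, Snrpb was at 127, 260 and 223 CPM against 164, 174 and 185 CPM. MA-10 replicate 1 was the lowest MA-10 library for all 11 genes and fell under the STARKO1 mean for each of them. The summed level was 775, 4443 and 3068 CPM in the MA-10 libraries and 937 to 967 CPM in STARKO1. Without MA-10 replicate 1, all 11 passed as lower in STARKO1, where 31.7% of all genes did. Cytosolic ribosomal protein genes went the same way, so the pattern was not particular to snRNP or LSm genes. With all libraries, 83 of the 86 tested had a negative log2 fold change (median −1.03) and none was called. In the fit without MA-10 replicate 1, 82.6% of them passed as lower. The part that 7SL content and the other differences in composition had in this split was not tested.

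LSm proteins form rings that bind U6 snRNA or, in the cytoplasm, decaying mRNA, and others serve histone mRNA processing or RNA granules. None of the 13 genes passed, all 13 had a negative log2 fold change, and the median was −0.88. With library size as the scale, Lsm11, Lsm12 and Lsm14b turned positive and the median was −0.34, and Lsm11 also did so without MA-10 replicate 1 or STARKO1 replicate 1. Lsm5 was at 21.8, 385 and 249 CPM in MA-10 and at 25.4, 28.0 and 25.2 CPM in STARKO1 (log2 fold change −3.06, SE 0.885, adjusted p = 0.0674 by edgeR). Lsm8, which sets the nuclear ring apart, was at 7.85, 94.4 and 58.8 CPM against 10.5, 11.4 and 7.81 CPM. Lsm3 was at 33.5, 218 and 137 CPM against 36.7, 37.2 and 33.1 CPM. These 3 genes split the MA-10 libraries as Snrpf did.

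Other LSm genes kept the groups apart. Lsm14a, a component of P-bodies, was at 77.7, 130 and 93.5 CPM in MA-10 and 56.1, 58.4 and 50.6 CPM in STARKO1 (log2 fold change −0.87, SE 0.221, adjusted p = 0.0558 by edgeR), and it overlaps another listed gene. Lsm10, part of the U7 snRNP of histone mRNA processing, was at 9.56, 21.6 and 14.6 CPM against 6.93, 7.66 and 6.07 CPM (log2 fold change −1.14, SE 0.310, adjusted p = 0.0614 by edgeR). In all, 4 of the 13 genes had every STARKO1 value under every MA-10 value. Such separation in 1 direction or the other held for 41 of the 122 splicing genes (33.6%), 29 higher and 12 lower in STARKO1, against 42.5% of all genes tested (21.5% higher and 21% lower). Without MA-10 replicate 1, 11 LSm genes (84.6%) passed as lower and none as higher, against 31.7% and 34% of all genes.

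**Figure D3:**
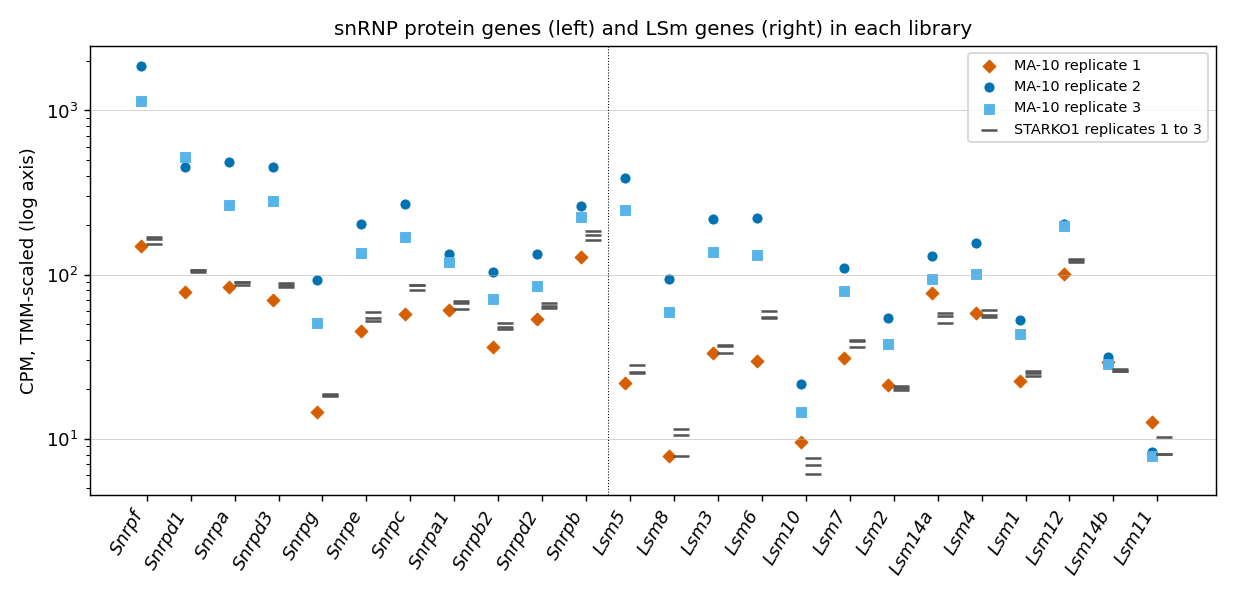
The 11 snRNP genes (left of the dotted line) and 13 LSm genes (right), each ordered by log2 fold change, are plotted with CPM in each library on a logarithmic y axis. Symbols are as in the plot of SR protein genes. For most genes MA-10 replicate 1 sits with the STARKO1 dashes, and MA-10 replicates 2 and 3 lie above, as for Snrpf at 148 CPM against 1857 and 1148 CPM.

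PRPF proteins serve the U4/U6.U5 tri-snRNP and the complex around PRPF19, and none of the 13 genes passed with all libraries. With MA-10 replicate 1 left out, 9 passed (69.2%), 2 higher (Prpf8 and Prpf19) and 7 lower, against 65.7% of all genes. Prpf8, the scaffold of the catalytic centre and the gene with the highest level per kilobase of the group, was at 339, 106 and 181 CPM in MA-10 and 329, 325 and 362 CPM in STARKO1. Prpf19, a ubiquitin ligase, was at 76.5, 87.6 and 67.7 CPM against 107, 114 and 118 CPM, a log2 fold change of 0.55 (SE 0.162, adjusted p = 0.0695 by edgeR). The log2 fold change of Prpf8 was 0.70 with all libraries (adjusted p = 0.236 by edgeR) and 1.32 without MA-10 replicate 1 (adjusted p = 0.00126). For Prpf8 MA-10 replicate 1 was within the STARKO1 range, and for Prpf19 the groups did not overlap. Prpf40b had one of the smallest changes, at 59.1, 36.4 and 50.8 CPM against 50.9, 45.2 and 50.6 CPM.

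The hnRNP and PTBP genes made up the largest part of the summed level, at 8125 to 16785 CPM in MA-10 and 9891 to 10133 CPM in STARKO1, and none of the 23 passed. Their median log2 fold change was 0.02. Hnrnpc, a nuclear protein that coats long nascent transcripts, was at 245, 161 and 161 CPM in MA-10 and 326, 341 and 333 CPM in STARKO1 (log2 fold change 0.82, SE 0.224, adjusted p = 0.0623 by edgeR). Ptbp1, a repressor that binds pyrimidine tracts, was at 305, 179 and 198 CPM against 375, 394 and 396 CPM (adjusted p = 0.0793 by edgeR). In both genes every STARKO1 library was above every MA-10 library.

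Other genes of the group were split within MA-10. Hnrnpa3, with the highest level per kilobase of the group at 492 CPM per kilobase, was at 1657, 4879 and 4006 CPM in MA-10 and 1843, 1806 and 1725 CPM in STARKO1. Hnrnpk was at 764, 3654 and 2765 CPM against 883, 932 and 916 CPM (adjusted p = 0.111 by edgeR). Without MA-10 replicate 1, 7 genes of the group (30.4%) passed as higher, Hnrnpc and Ptbp1 among them, and 9 (39.1%) as lower, Hnrnpa3 and Hnrnpk among them, shares near the 34% and 31.7% of all genes.

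Over all splicing genes tested, MA-10 replicate 1 was the lowest MA-10 library in 82 (67.2%), against 41.5% of all genes tested. It was the MA-10 library nearest to the STARKO1 mean in 78 (63.9%), against 64% of all genes, so the nearness was that of the whole table. The splicing genes took 1.74% of counts in MA-10 replicate 1, 2.08% and 2.15% in replicates 2 and 3, and 2.18 to 2.20% in STARKO1. Scaled by TMM, their sum was 15116, 31787 and 26696 CPM in MA-10 and 18313 to 18707 CPM in STARKO1. MA-10 replicates 2 and 3 were thus below STARKO1 by share of counts and above it on the TMM scale. The TMM factors were 1.16, 0.654 and 0.805 in MA-10 and 1.17 to 1.19 in STARKO1. Without MA-10 replicate 1, 94 splicing genes (77.0%) passed, 35 higher and 59 lower, where 65.7% of all genes did, 34% as higher and 31.7% as lower. The 11 genes called with all libraries were among them, each in the same direction. Over the splicing genes, log2 fold change correlated with log2 exon length at r = 0.371, and over all genes at 0.123, as a description across genes that share their libraries. Median exon length was 2618 bases for the snRNP genes, 2892 for the LSm genes, 5260 for the SR genes and 4198 for all genes tested, and the part of length in the fold changes was not tested beyond the offset above.

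**Figure D4:**
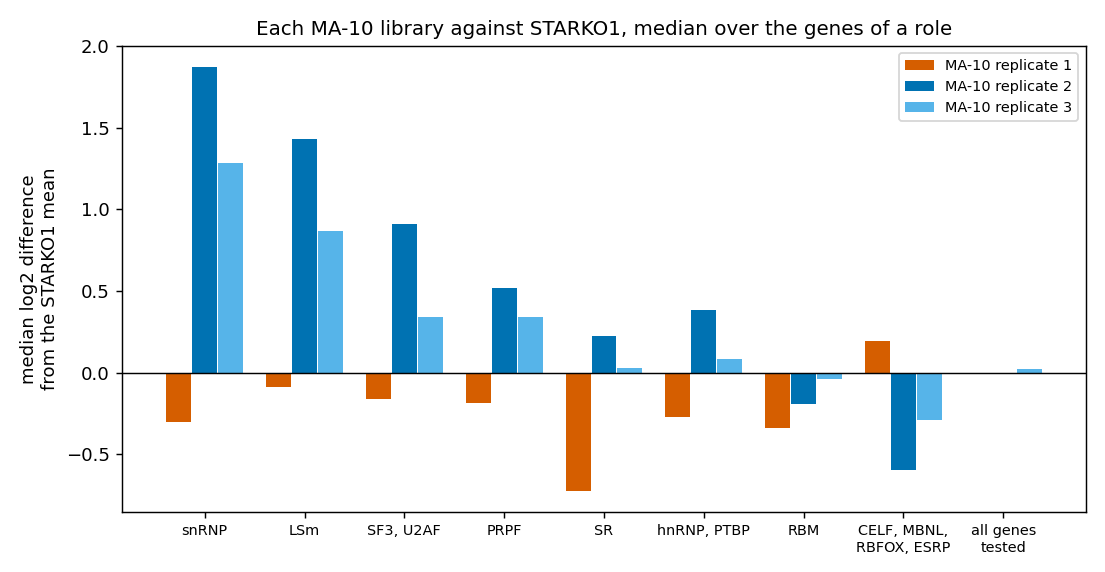
For each role, and for all genes tested, bars give the median over genes of the log2 difference between 1 MA-10 library and the STARKO1 mean. The snRNP bars are at −0.30, 1.87 and 1.28 for MA-10 replicates 1, 2 and 3, the SR bars at −0.72, 0.23 and 0.03, and those of all genes are near 0.

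Genes of the splicing machinery outside these families were taken from 6 lists, which held 138 tested genes. Of these, 10 passed (7.25%, against 9.04% of all genes tested), 8 higher and 2 lower. Without MA-10 replicate 1, 95 passed (68.8%, against 65.7% of all genes). Of all 138, 25.4% were then higher and 43.5% lower, against 34% and 31.7% of all genes. The SMN complex loads Sm proteins onto snRNA. Its list also held Prmt5, Wdr77 and Clns1a, which are not subunits of it, and had 3 calls in 12 genes (25%) with all libraries. Gemin4 was the only subunit of the complex itself with a call. Smn1, Gemin2, Gemin6 and Gemin7 had log2 fold changes of −0.74, −1.34, −0.80 and −2.01 without a call. Those of Ddx20, Gemin5, Gemin8 and Strap were positive, also without a call. Without MA-10 replicate 1 the list had 10 calls (83.3%), 5 higher and 5 lower. Wdr77 and Prmt5, which together methylate Sm proteins, were at 16.4, 10.7 and 7.75 CPM in MA-10 against 34.5, 34.96 and 38.1 CPM in STARKO1, and at 45.3, 41.0 and 37.4 CPM against 61.8, 66.4 and 69.8 CPM. Gemin4 was at 10.4, 9.02 and 6.78 CPM against 21.6, 21.7 and 22.8 CPM. All 3 rose, with adjusted p = 0.0232, 0.0428 and 0.0143 by edgeR.

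Among the 9 tested kinases and phosphatases of SR proteins only Clk4 passed. Clk4, which phosphorylates SR proteins, fell from 63.4, 179 and 163 CPM to 48.8, 40.6 and 43.7 CPM (adjusted p = 0.0483 by edgeR). Of 29 other RNA-binding regulators, Ddx17 and Qk rose and Akap8l fell. Ddx17, an RNA helicase, was at 53.4, 36.4 and 32.8 CPM against 92.7, 93.2 and 87.7 CPM (adjusted p = 0.0272 by edgeR). Cactin and Cherp passed as higher among 63 other spliceosome genes, and Zmat5 among 7 genes of the minor spliceosome, which removes a rare class of introns. None of 19 genes of the exon junction complex and its SR-related partners passed by edgeR, with 4 (21.1%) at an unadjusted p under 0.05, against 37.6% of all genes, and 4 called by DESeq2, against 28.4%. Without MA-10 replicate 1, 14 of the 19 passed (73.7%), 4 higher and 10 lower, against 65.7% of all genes. In that fit 66.7% of the kinases and phosphatases and 62.1% of the other RNA-binding regulators passed. So did 66.7% of the other spliceosome genes and 71.4% of those of the minor spliceosome.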

How the data were processed

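Total RNA of 3 MA-10 and 3 STARKO1 libraries was measured by RNA sequencing with a stranded total RNA kit. The authors deposited estimated counts per gene, which need not be whole, in 1 table. The submitters' processing notes name STAR 2.6.1d, Partek and mm10, without roles or order, and the strand setting of the counting is not given in the sources used here. Gene starts of all 125 splicing genes matched GENCODE M21 (GRCm38). All 6 columns were matched to samples by name.

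Counts were rounded to whole numbers (107 of the 125 splicing genes had values that were not whole), filtered with filterByExpr, scaled by TMM and tested across all 11939 remaining genes with edgeR 4.0.16 (glmQLFit, glmQLFTest) in R 4.3.3, with Benjamini-Hochberg adjustment and a threshold of 0.05. DESeq2 1.42.0, other scalings, filters, a replicate block, thresholds and leaving out each library were alternatives. Depth was 14114351 to 19530062 counts per library, and the lowest count of a tested splicing gene was 31. CPM per kilobase used the summed exon length. Of the splicing genes, 41 overlap another listed gene, and counts there may be shared. RefSeq promoter sequence (GRCm38.p6) matched 103 splicing genes.

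The genes named are those past the threshold, in each role the gene with the highest level per kilobase, the 5 nearest to the threshold, the 3 with at least 20 CPM and the smallest change, and in each role without a call the gene with the lowest p. Further genes of a role, and of the other lists, were chosen after their values were seen. The genes and lists were chosen with earlier results of these data known. Protein features were planned and not analysed here.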

Additional observations from a re-analysis of the deposited data

How the results depend on the processing

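Of the 11 calls, all kept their direction and side of the threshold with DESeq2, without the 50 most abundant genes, with at least 10 counts in every library and without MA-10 replicate 1. Without the other libraries fewer did, namely 5 without MA-10 replicate 2 (Sf3b3, Srsf1, Srsf2, Srsf3 and Srsf6), 2 without MA-10 replicate 3 (Srsf1 and Srsf6) and 1, Srsf6, without STARKO1 replicate 1, 2 or 3. Counts of calls when 1 library was left out ran from 1 (without any STARKO1 library, where 0.73% to 1.11% of all genes were called) to 94 (without MA-10 replicate 1, 65.7% of all genes), with 5 without MA-10 replicate 2 (4.19%) and 2 without MA-10 replicate 3 (1.49%), from 1 to 35 higher and from 0 to 59 lower, and the median log2 fold change from −0.33 to −0.10. DESeq2 called 38 splicing genes (21 higher, 17 lower, 28.4% of all genes), and library size scaling 6 (6 higher, 0 lower, 2.76%), losing Mbnl2, Rbm10, Rbm19, Rbm22, Sf3b3 and Srsf2, with a median of 0.28, where the median of all genes was 0.38, so that the splicing genes lay below it under both scalings. Upper quartile scaling called 9 (8 higher, 1 lower, 6.94% of all genes) and lost Rbm10, Rbm19 and Rbm22. A threshold of 0.01 left 2 genes (2 higher, 0 lower, 1.5% of all genes), one of 0.1 gave 34 (19 higher, 15 lower, 29.1%), and 0.05 with at least a 2-fold change left 4 (4 higher, 0 lower, 6.67%). A gene length offset, chosen after seeing the data, called 11 genes (10.1% of all genes) and lost Srsf3 at a log2 fold change of 0.71. The causes were not tested. A fit of MA-10 replicate 1 alone against STARKO1 was also run after seeing the data and is not reported, because it set a library picked by its values against the group. For the genes named, 65 values lost and 25 gained a call, and no called gene changed sign. Sign changes were confined to 6 genes without a call. With library size scaling they were Srsf9 (0.068), Rbm17 (0.070), Sf3b2 (0.43), Srsf11 (0.49) and Rbm26 (0.41). With upper quartile scaling Sf3b2, Srsf11 and Rbm26 had 0.13, 0.16 and 0.14, with no filter 0.038, 0.061 and 0.054, with at least 10 counts 0.0052, 0.026 and 0.023, and without the 50 most abundant genes 0.012, 0.034 and 0.029. Srsf11 and Rbm26 had 0.015 and 0.016 with DESeq2 and 0.021 and 0.0093 with the block, and Prpf40b had −0.030 with the length offset. With 1 library left out, Sf3b2 ran from −0.045 to 0.091, Srsf11 from −0.077 to 0.11, Prpf40b from −0.17 to 0.25 and Rbm26 from −0.13 to 0.11. The labels do not say whether the same replicate number in both groups pairs the samples. Correlations of same-numbered deviations were −0.040 to 0.090, and those of other pairs −0.102 to 0.0817. With 3 libraries per group these correlations cannot decide it. A replicate block called 2 splicing genes (2 higher, 0 lower), Sf3b3 and Srsf6, against 1.96% of all genes.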
